A study of Drosophila melanogaster with 9 samples.

Results

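The 6 tubulin genes followed in the indirect flight muscle of the fly Drosophila melanogaster were betaTub97EF, betaTub56D, betaTub60D, betaTub85D, alphaTub67C and alphaTub85E. They were chosen by gene symbol because betaTub97EF sits at background in one of the mutants, so the levels in that mutant against wild type are a description and carry no test here. All 6 genes were found, each with 1 probe set and a matching RefSeq gene, among 18769 probe sets and 11982 genes that the arrays measured by name. Muscle RNA came from 3 genotypes. The Act88FKM88 flies carry a null allele of Act88F, the actin gene of the flight muscle. The Mhc7 flies carry an allele that leaves the flight muscle without myosin heavy chain. Canton-S is a wild-type laboratory strain. Every genotype had 3 arrays, described as independent biological replicates, from adult males 1 to 2 days old kept at 25 °C on a cycle of 12 h of light and 12 h of darkness. Each sample was muscle dissected from thoraces, so it could hold RNA of tendon, nerve, trachea, fat body and other muscle too. The strain background of the mutant alleles and the number of flies behind a sample are not stated in the labels used here.

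Tubulin is the building block of microtubules and is a pair of one alpha and one beta chain. Flies carry several genes for each chain, and the products, called isotypes, differ in where and when they are made. In Drosophila betaTub56D is the broadly used beta isotype, betaTub60D is known from developing muscle and other mesoderm, and betaTub85D is the beta isotype of the male germ line, where it builds the sperm tail. alphaTub67C is a maternal isotype laid down in the egg, alphaTub85E has a restricted expression, and betaTub97EF is a beta isotype known from gut and blood cells. In developing muscle, microtubules guide fibre elongation and the first assembly of myofibrils, while the adult contractile lattice is made of actin and myosin filaments.

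Levels are deposited log2 values, so a step of 1 is a doubling. The arrays carry no detection call, and 125 probe sets of odorant and gustatory receptor genes, which muscle is not known to use, gave a yardstick for background. Their 95th percentile lay between 3.12 and 3.33 over the 9 arrays and their median between 2.75 and 2.87. A level at or under an array's 95th percentile is said below to lie in the receptor range. Muscle content was checked on 13 measured genes of a flight muscle list, Act88F among them, and all lay above the receptor range on all 9 arrays. Their mean level was 11.15 to 11.55 in Act88FKM88, 11.48 to 11.63 in Mhc7 and 11.16 to 11.43 in Canton-S. The 4 measured markers of other muscle did so too, at a mean level of 7.11 to 9.43, 6.58 to 7.43 and 6.36 to 8.03 in that order. The check therefore does not tell flight muscle from other muscle. Act88F, the gene hit by the first allele, measured 11.57, 11.79 and 11.03 in Act88FKM88, against 14.10, 14.32 and 14.36 in Canton-S, a difference of -2.80 ± 0.17 (log2, SE; adjusted p = 8.25e-05, limma). The Mhc transcript was not analysed here. Arrays correlated at 0.978 to 0.988 within a genotype and at 0.956 to 0.977 between genotypes.

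Of the 6 genes, betaTub97EF showed the widest contrast between the genotypes. Its level was 3.28, 3.11 and 3.45 on the Act88FKM88 arrays, 10.52, 10.39 and 10.45 on the Mhc7 arrays, and 9.65, 10.08 and 9.83 on the Canton-S arrays. The Act88FKM88 arrays stood together at the foot of the scale, far from all 6 others. In Act88FKM88 1 of the 3 values lay in the receptor range and the other 2 just above it (3.28 and 3.45, beside array limits of 3.12 and 3.30). In bulk muscle RNA, fewer cells that make a transcript and less transcript per cell cannot be told apart.

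The mean level of betaTub97EF was 3.28 ± 0.17 in Act88FKM88 and 9.85 ± 0.22 in Canton-S (SD, n = 3 each). The difference was -6.58 ± 0.13 (SE). With Act88FKM88 held at no less than the receptor limit of each array, its mean was 94.2-fold below Canton-S and 143-fold below Mhc7. Both are point estimates. The 95% intervals of the measured differences were -6.86 to -6.29 (log2) against Canton-S and -7.46 to -6.89 against Mhc7. Among the 18769 probe sets betaTub97EF had the largest fall in Act88FKM88 against Canton-S, and likewise in Act88FKM88 against Mhc7 (-7.17 ± 0.13). These ranks describe the choice of the gene and carry no test. Leaving out any 1 array kept the first difference between -6.68 and -6.46.

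The other mutant went the other way for this gene. Mhc7 muscle averaged 10.45 ± 0.07 and Canton-S muscle 9.85 ± 0.22 (SD, n = 3 each), and all 3 Mhc7 values lay above all 3 Canton-S values. The difference of 0.60 ± 0.13 (95% interval 0.31 to 0.88) had an adjusted p of 0.0278 in the limma fit, but at 1.51-fold it missed the 2-fold threshold and so was not called. It also depended on how the arrays were scaled. Quantile normalization repeated over the deposited values gave -0.15 (adjusted p = 0.694), and removal of an intensity trend by loess gave 0.10 (adjusted p = 0.853). The 95th percentile of all probe sets was higher on the mutant arrays than on those of Canton-S. It was 7.57 to 7.96 in Act88FKM88, 7.77 to 8.15 in Mhc7 and 7.26 to 7.47 in Canton-S. Under the same alternatives the Act88FKM88 difference from Canton-S was -6.97 and -6.92.

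**Figure D1:**
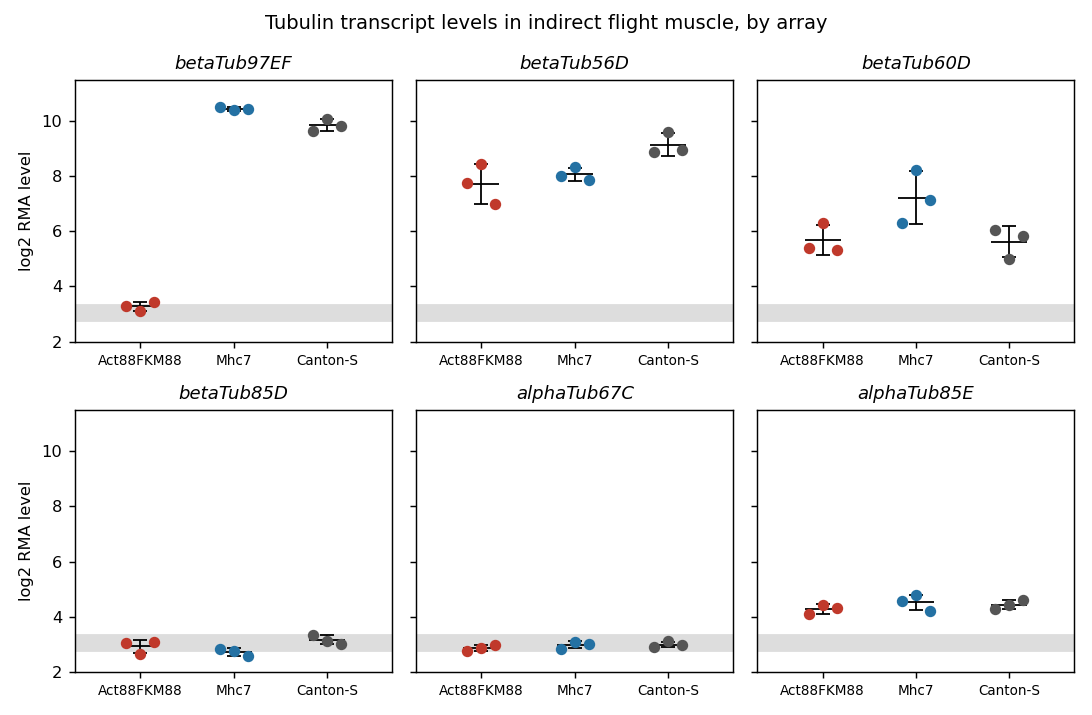
Level of each of the 6 tubulin genes (log2 RMA value, vertical axis) on the 3 arrays of Act88FKM88 (red), Mhc7 (blue) and Canton-S (grey). Points are arrays, the long line is the mean, the bars are 1 SD, and the grey band runs from the lowest receptor median (2.75) to the highest receptor 95th percentile (3.33). betaTub97EF in Act88FKM88 lies at the edge of the band, at 3.11 to 3.45, while betaTub85D and alphaTub67C lie in or near it in all genotypes.

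betaTub56D, the broadly used beta isotype, was lower in both mutants than in wild type. It measured 7.77, 8.43 and 7.00 in Act88FKM88, 8.00, 8.33 and 7.88 in Mhc7, and 8.88, 9.62 and 8.94 in Canton-S. All 6 mutant arrays were below all 3 Canton-S arrays, and the 2 mutants overlapped. The probe set is of a design that can bind transcripts of related genes, so its signal may include another tubulin.

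The difference of betaTub56D was -1.42 ± 0.33 in Act88FKM88 against Canton-S, given as a description. That value was past the threshold with all arrays, but not without Act88FKM88 1, Canton-S 1 or Canton-S 2, nor with only the 6 arrays compared or at an adjusted p under 0.05. For Mhc7 against Canton-S it was -1.08 ± 0.33, with a 95% interval of -1.83 to -0.32. The adjusted p of that difference was 0.125 in the limma fit (0.0103 before adjustment), which did not pass. It did pass under 6 of 8 alternative settings, with adjusted p from 0.00799 with quantile normalization repeated to 0.0921 with dim probe sets left out. It also passed without the Act88FKM88 2 array (adjusted p = 0.0476) or without Act88FKM88 3 (adjusted p = 0.0426), and the adjusted p reached 0.318 without Canton-S 2. Both mutants were set against the same 3 Canton-S arrays. Between the mutants the difference was -0.34 ± 0.33 (95% interval -1.09 to 0.42, adjusted p = 0.756).

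Among 11 measured markers of tendon and epidermis, 8 lay above the receptor range on all 9 arrays, and the list was mixed in direction. Called lower against Canton-S were 2 in Act88FKM88 (18.2%, where 0.330% of all probe sets were), Cpr76Bd and Cpr64Aa, and 4 in Mhc7 (36.4%, where 0.389% were), the same pair with Tsp and LanA. None was called higher, and the rest did not pass. By mean level, called or not, 9 of 11 were below Canton-S in Act88FKM88 and 8 of 11 in Mhc7. Cpr64Ab averaged 9.45 in Mhc7 (7.77 to 10.71) and 7.99 in Canton-S (5.13 to 9.79), and Cpr64Ad averaged 12.25 ± 0.60 in Mhc7 and 11.71 ± 0.52 in Canton-S (SD, n = 3 each). The mean level of the list was 5.60 to 6.10 in Act88FKM88, 5.45 to 6.05 in Mhc7 and 6.10 to 6.57 in Canton-S. The defining tendon gene stripe (sr) never left the receptor range. The part of these cells in the betaTub56D values was not tested.

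betaTub60D, the isotype of developing muscle, was highest in Mhc7. It measured 5.41, 6.30 and 5.33 in Act88FKM88, 6.29, 8.23 and 7.13 in Mhc7, and 6.06, 4.99 and 5.83 in Canton-S. Mhc7 muscle lay above Canton-S muscle without overlap, but its own arrays spread over nearly 2 units, and its lowest value met the highest of Act88FKM88. All values lay above the receptor range.

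The mean of betaTub60D was 7.22 ± 0.97 in Mhc7 and 5.63 ± 0.56 in Canton-S (SD, n = 3 each). The 3.01-fold difference (1.59 ± 0.48, 95% interval 0.50 to 2.68) did not pass, with an adjusted p of 0.116 in the limma fit. A single library could change the call: without Mhc7 1 the difference was 2.05 and the adjusted p 0.0382. With all arrays, the difference also passed with dim probe sets left out before the adjustment (adjusted p = 0.083). Without Mhc7 2, the highest array, it was 1.08 (adjusted p = 0.273). Over the fits that left out an array it ranged between 1.08 and 2.05. Act88FKM88 differed from Mhc7 by -1.54 ± 0.48 (95% interval -2.62 to -0.45, adjusted p = 0.174), and by -2.00 without Mhc7 1 (adjusted p = 0.0647). Against Canton-S the Act88FKM88 difference was 0.05 ± 0.48, so those 2 genotypes lay within the spread of their arrays.

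The remaining 3 genes were low in all genotypes. alphaTub85E was above the receptor range on all 9 arrays, at 4.10, 4.43 and 4.33 in Act88FKM88, 4.56, 4.78 and 4.22 in Mhc7, and 4.29, 4.42 and 4.60 in Canton-S. The 3 genotypes overlapped. Its difference was -0.15 ± 0.15 in Act88FKM88 and 0.09 ± 0.15 in Mhc7, each against Canton-S, and the 95% interval for Mhc7 was -0.26 to 0.43 (adjusted p = 0.86). Between the mutants it was -0.24 ± 0.15 (95% interval -0.58 to 0.11, adjusted p = 0.59).

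betaTub85D, the sperm tail isotype, measured 3.03, 2.63 and 3.09 in Act88FKM88, 2.84, 2.74 and 2.59 in Mhc7, and 3.32, 3.13 and 3.01 in Canton-S. A single array, Canton-S 1, exceeded its receptor limit (3.32 beside 3.24). The Mhc7 values lay below the Canton-S values by 0.43 on average (-0.43 ± 0.14, adjusted p = 0.137), a step at or inside the receptor range with no order to be read from it. Of 18 measured testis genes 14 never left the receptor range, including the germ line genes don juan (dj), bam and vas. Mst98Ca, Mst84Dc, fzo and janB exceeded it on some arrays, Mst98Ca with values of up to 3.46. In the 3 comparisons 0 of 18 were called, where 1.81%, 2.79% and 1.79% of all probe sets were, so few calls could be looked for.

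alphaTub67C, the maternal isotype, measured 2.74, 2.86 and 2.99 in Act88FKM88, 2.84, 3.07 and 3.02 in Mhc7, and 2.89, 3.10 and 2.98 in Canton-S. All 9 values lay in the receptor range. The differences were -0.13 ± 0.10 and -0.02 ± 0.10 in the mutants against Canton-S and -0.11 ± 0.10 between the mutants. A transcript at this level cannot be told from background on these arrays.

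By the threshold of the study, an adjusted p under 0.1 and a change of at least 2-fold, none of the 6 genes was called in Mhc7 against Canton-S, where 2.79% of all probe sets were (2.40% higher and 0.389% lower). At any size of change 1 of 6, betaTub97EF, had an adjusted p under 0.1, against 7.11% of all probe sets. At an unadjusted p under 0.05 there were 4 of 6, against 16.8% of all probe sets, and the ranges of the arrays were apart for 4 of 6 (2 above, 2 below), against 22.1%. One of those 4, betaTub85D, lies in the receptor range on 8 of 9 arrays. The median difference of the 6 genes was 0.03, and that of all probe sets -0.01. In Act88FKM88 against Mhc7, 0 of the 5 genes other than betaTub97EF were called, where 1.79% of probe sets were. There 1 of 5 had an unadjusted p under 0.05, against 13.2% of probe sets, and 0 of 5 had ranges apart, against 18.2%. In the contrast that chose the genes, Act88FKM88 against Canton-S, 2 of 6 were past the threshold, both lower, where 0.330% of probe sets were called lower, and nothing is read from that share.

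**Figure D2:**
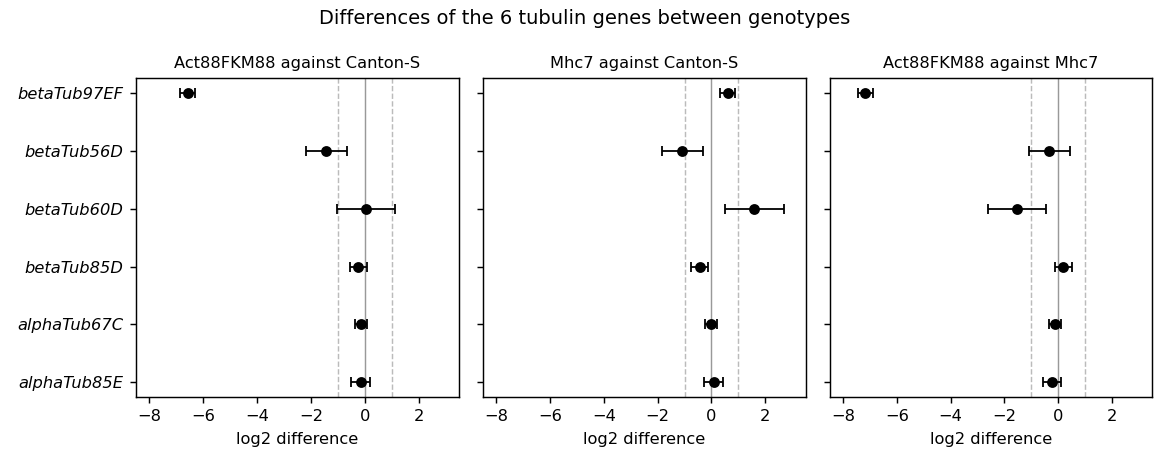
Differences in level of the 6 tubulin genes (log2, horizontal axis) for Act88FKM88 against Canton-S, Mhc7 against Canton-S and Act88FKM88 against Mhc7. Points are differences of 3 arrays from 3 arrays, bars are 95% intervals of the limma fit, and dashed lines mark a 2-fold change. betaTub97EF stands at -6.58 and -7.17 in the panels of Act88FKM88 and at 0.60 in Mhc7, and betaTub60D has the widest intervals.

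The genes whose pattern was nearest to that of betaTub97EF were sought among 719 probe sets with 1 named gene that were called in any comparison. Nearness was the Euclidean distance over 2 differences, Act88FKM88 minus Canton-S and Mhc7 minus Canton-S. The nearest was Obsc, which encodes obscurin, a giant protein of the sarcomere's M-line, at a distance of 3.14. Its level was 8.67, 9.15 and 8.19 in Act88FKM88, 12.34, 12.42 and 12.23 in Mhc7, and 11.98, 12.35 and 12.08 in Canton-S. Next came CG8788 (3.25), Act88F itself (3.84), the protein kinase gene Hipk (3.97) and CG5644 (4.20).

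These 5 genes share a lower level in Act88FKM88 than in Canton-S, as their choice requires, and none is close to betaTub97EF in the size of the fall. Their differences from Canton-S in that mutant ran between -3.64 for CG8788 and -2.60 for CG5644, beside -6.58 for betaTub97EF. In Mhc7 against Canton-S, Obsc differed by 0.19 ± 0.21, Act88F by -0.10 ± 0.17 and Hipk by -0.19 ± 0.27. CG8788 differed by -0.79 ± 0.38 and CG5644 by -0.77 ± 0.30. betaTub97EF is encoded on chromosome arm 3R, as is Act88F, while Obsc and CG8788 are on 2R, and Hipk and CG5644 on 3L.

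The genes next to betaTub97EF on 3R measured near their wild-type levels in both mutants, but several of them lay in or near the receptor range. In the RefSeq gene order, the 5 nearest measured genes on one side were CG4849, CG4884, Nep7, CG4951 and Gp93, and on the other CG4815, trv, CG34354, CG43125 and CG34437. None of these 10 was called in any of the comparisons, where 1.81%, 2.79% and 1.79% of all probe sets were. Their differences from Canton-S spanned -0.19 (trv) to 0.76 (CG4884) in Act88FKM88 and -0.24 to 0.52 in Mhc7. CG43125 and CG34437 lay in the receptor range on all 9 arrays. CG4815, CG34354, Nep7 and CG4951 lay in or near it in Canton-S. A fall in these genes could not have been seen, so their small differences say little.

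CG4884, the neighbour with the largest value, measured 5.56, 5.98 and 5.76 in Act88FKM88, against 5.31, 4.49 and 5.22 in Canton-S. That is a higher level in the mutant, opposite to betaTub97EF, with a difference of 0.76 ± 0.23 (adjusted p = 0.134, limma). Gp93, an endoplasmic reticulum chaperone gene, was at 6.28 in Act88FKM88 and 6.29 in Canton-S. The adjacent pair was nearly level too: CG4849 differed by -0.15 ± 0.11 and CG4815, which lies in or near the receptor range, by -0.16 ± 0.10.

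**Figure D3:**
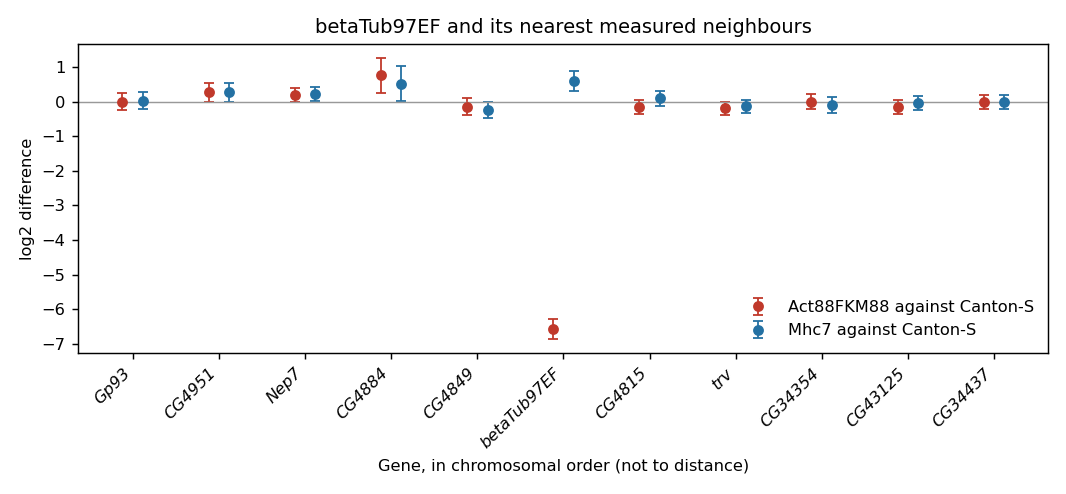
Differences from Canton-S (log2, vertical axis) of betaTub97EF and its 10 nearest measured neighbours on chromosome arm 3R, in gene order and not to distance, for Act88FKM88 (red) and Mhc7 (blue). Bars are 95% intervals of the limma fit with 3 arrays per genotype. betaTub97EF in Act88FKM88 stands alone at -6.58, and the neighbours lie between -0.24 and 0.76. Several neighbours are in or near the receptor range, where a fall would not show.

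Beyond the 6 genes, 102 measured genes of microtubule biology were counted, out of 118 listed. They cover other tubulins, tubulin folding, cofactors, nucleation, proteins of microtubule ends and lattice, severing and modification, kinesins, and dynein with dynactin. Of the 102, 46 lay above the receptor range on all 9 arrays and 27 in it on all 9. Called were 2 in Act88FKM88 (both higher, 1.96%) and 8 in Mhc7 (7 higher and 1 lower, 7.84%), each against Canton-S, and 4 in Act88FKM88 against Mhc7 (all lower, 3.92%). The corresponding shares of all probe sets were 1.81%, 2.79% (2.40% higher and 0.389% lower) and 1.79% (1.03% lower). The median differences were -0.01, 0.07 and -0.05, beside -0.03, -0.01 and -0.01 over all probe sets. The 3 comparisons share arrays, so their counts are not independent.

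The genes of tubulin folding held most of the calls in Mhc7. New alpha and beta chains are handed by prefoldin, a chaperone that holds unfolded actin and tubulin, to the ring-shaped chaperonin CCT, which folds both. The list of 14 subunits had 6 called higher in Mhc7 against Canton-S (42.9%, where 2.40% of all probe sets were). All 6 were the prefoldin subunits, while 0 of 8 CCT subunits were called. That split was made after the values were seen. The median difference was 1.38 over the prefoldin subunits and 0.33 over the CCT subunits, of which CCT7 was highest at 0.87 (adjusted p = 0.127).

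Pfdn1 had the largest rise of the prefoldin genes. It measured 5.20, 6.07 and 4.99 in Act88FKM88, 6.26, 7.29 and 6.85 in Mhc7, and 4.64, 4.57 and 4.88 in Canton-S. Each Mhc7 array stood above each Act88FKM88 array, and these in turn above Canton-S. The rise in Mhc7 was 2.10 ± 0.31 (adjusted p = 0.00477, limma), and Act88FKM88 was lower than Mhc7 by 1.38 (-1.38 ± 0.31).

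Pfdn2 was higher in both mutants. It measured 7.81, 8.32 and 7.71 in Act88FKM88, 7.94, 8.36 and 8.45 in Mhc7, and 6.87, 6.64 and 6.96 in Canton-S. Both sets of mutant arrays lay above wild type and overlapped each other. It rose by 1.13 ± 0.19 in Act88FKM88 (adjusted p = 0.0143) and by 1.43 ± 0.19 in Mhc7 (adjusted p = 0.00285). The Act88FKM88 call was lost without Act88FKM88 2 (0.94) and with quantile normalization or loess (0.79 each). The other 4 subunits rose in Mhc7 by 1.12 (Pfdn4) to 1.44 (Pfdn6), with mgr at 1.27 and Pfdn5 at 1.32.

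Set directly against Mhc7, where 1.03% of all probe sets were called lower, 3 prefoldin subunits were called lower in Act88FKM88. They were Pfdn1, Pfdn6 (-1.12 ± 0.22) and mgr (-1.33 ± 0.27). Against Canton-S these differed in Act88FKM88 by 0.72, 0.33 and -0.06 in that order, and none was called. mgr measured 5.94, 6.51 and 5.99 in Act88FKM88 and 7.03, 8.00 and 7.40 in Mhc7, with no overlap. Pfdn1 and Pfdn6 each lost the call against Mhc7 in 4 of 9 fits that left out an array (without Act88FKM88 1 or 3, or Mhc7 2 or 3). The mgr call was lost in 3 (without Act88FKM88 1 or 3, or Mhc7 3). Over the 8 alternative settings Pfdn1 and Pfdn6 each lost the call in 2, and mgr kept it in all. In Mhc7 against Canton-S, 5 subunits kept their calls in all 9 such fits, and Pfdn4 lost its call without Canton-S 1 or Mhc7 2. Repeated quantile normalization left only Pfdn1 called (1.81), with the other 5 at 0.41 to 0.85. The loess alternative likewise left Pfdn1 (1.85), with the others at 0.62 to 0.98.

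Of the genes of microtubule ends and lattice, 14 were measured, and tacc, shot and tau were called in some comparison. tacc, whose product works with Msps at microtubule plus ends and centrosomes, measured 6.51, 7.07 and 6.41 in Act88FKM88, 7.96, 8.57 and 8.42 in Mhc7, and 6.21, 5.45 and 6.86 in Canton-S. The Mhc7 arrays stood apart from all 6 others. It rose by 2.14 ± 0.33 in Mhc7 against Canton-S (adjusted p = 0.00645, limma). Act88FKM88 was lower than Mhc7 by 1.65 (adjusted p = 0.0377). The second call was lost in 4 of 9 fits that left out an array (without Act88FKM88 1 or 3, or Mhc7 2 or 3). The probe set is of the design that can bind related transcripts.

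shot encodes the spectraplakin Short stop, a linker of actin and microtubules that is known for its role in tendon cells. It measured 5.99, 6.92 and 5.60 in Act88FKM88, 5.75, 6.33 and 5.49 in Mhc7, and 7.61, 7.83 and 6.56 in Canton-S. Mhc7 was below Canton-S without overlap, and Act88FKM88 overlapped Canton-S on 1 array. It fell by 1.48 in Mhc7 (-1.48 ± 0.41, adjusted p = 0.0865), a call lost without Act88FKM88 1, Canton-S 1, Canton-S 2, Mhc7 1 or Mhc7 3, where the adjusted p reached 0.259. Of the tendon and epidermis list, a mixed one as given above, 4 of 11 genes were called lower in the same muscle, and their part in the shot values was not tested.

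tau encodes a protein that binds along microtubules. It measured 7.38, 7.94 and 7.36 in Act88FKM88, 6.48, 7.69 and 6.96 in Mhc7, and 6.59, 5.58 and 6.50 in Canton-S. The Act88FKM88 arrays lay above the Canton-S arrays, and Mhc7 overlapped both. It rose by 1.34 ± 0.35 in Act88FKM88 (adjusted p = 0.0839, limma), a call lost in 7 of the 9 fits that left out an array, with an adjusted p of up to 0.235.

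**Figure D4:**
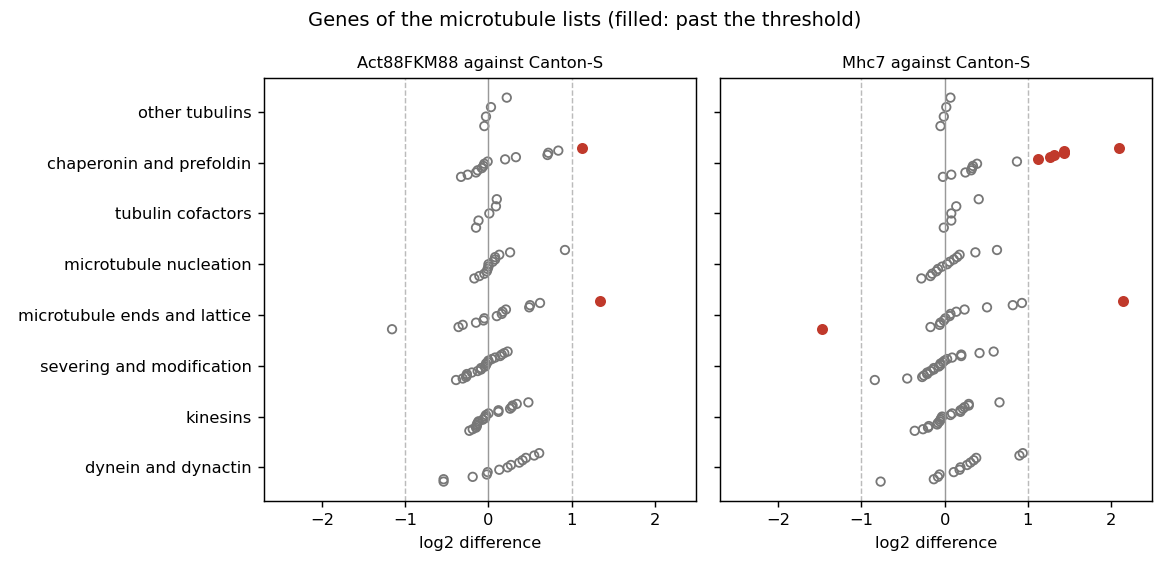
Differences from Canton-S (log2, horizontal axis) of the 102 measured microtubule genes, by list, in Act88FKM88 (left) and Mhc7 (right), 3 arrays per genotype. Filled points passed an adjusted p under 0.1 and a 2-fold change, and dashed lines mark the 2-fold change. The 6 filled points of the chaperonin and prefoldin list lie between 1.12 and 2.10 in Mhc7, and 1 lies at 1.13 in Act88FKM88.

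The motors and the remaining lists had no call in any of the comparisons, where 1.81%, 2.79% and 1.79% of all probe sets were called. This covers 13 dynein and dynactin genes, 19 kinesins, 20 genes of severing and modification, 13 of nucleation, 5 cofactors and 4 other tubulins. Above the receptor range on all 9 arrays were 12, 4, 5, 1, 2 and 0 of them in that order. For the dim ones the lack of a call says little. In Mhc7 against Canton-S, an unadjusted p under 0.05 was reached by 4, 3, 3, 4, 1 and 0 of them in that order. Of all probe sets 16.8% reached it. Some dynein genes had small differences with a low adjusted p. ctp, a dynein light chain gene, averaged 10.37 in Mhc7 and 9.46 in Canton-S (0.90 ± 0.12, adjusted p = 0.00275), and robl, another, averaged 7.80 in Mhc7 and 6.86 in Canton-S (0.94 ± 0.16, adjusted p = 0.00886). Both stayed under 2-fold with all arrays, although robl reached 1.09 without Canton-S 3 and was then called (adjusted p = 0.0047, limma). They came to as little as 0.17 (ctp) and 0.40 (robl) over the 8 alternative settings. Plp, a centrosome scaffold gene, averaged 11.43 in Act88FKM88 and 10.51 in Canton-S (0.92 ± 0.11, adjusted p = 0.0039). Its difference came to as little as 0.43 over the same settings. Of the 3 probe sets of Plp and the 2 of ctp, only the brightest is given.

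DCTN1-p150, the large dynactin subunit, was at 3.71 in Act88FKM88 and 4.25 in Canton-S (-0.54 ± 0.14, adjusted p = 0.0804). Klp68D, a kinesin-2 subunit gene, was at 4.33 in Mhc7 and 3.67 in Canton-S (0.66 ± 0.13, adjusted p = 0.0242). The tubulin folding cofactor gene Tbce was at 3.75 in Mhc7 and 3.34 in Canton-S (0.41 ± 0.10, adjusted p = 0.0612). All 4 measured tubulin genes outside the 6, alphaTub84D among them, lay in the receptor range on all 9 arrays. That does not show these genes to be silent, as how well their probe sets report the transcripts was not tested. alphaTub84B, the broadly used alpha isotype, was not analysed here.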

How the data were processed

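Muscle RNA was measured on Affymetrix Drosophila Genome 2.0 arrays from 6 µg of total RNA, labelled as biotinylated cRNA per the labels' protocols. The deposited values are on the log2 scale, made by the authors with RMA (robust multi-array average: background correction, normalization and summary over probes) per the submitters' processing notes. The sources used here do not say whether the 9 arrays went through RMA as one set. The range of the values fits a log2 scale. There is no read depth to give for arrays: it is the number of arrays that limits the precision.

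With limma 3.58.1 (R 4.3.3), genotype means were fitted on the 9 arrays together, over 18769 probe sets (183 control probe sets left out), and tested on simulated data. P-values are two-sided and Benjamini-Hochberg adjusted over all probe sets. A probe set was called at an adjusted p under 0.1 and at least 2-fold, the study's false discovery rate and fold. The study's own test, SAM, was not run. The platform annotation names 1 gene for 13647 probe sets, several for 402 and none for 4720, and 13544 matched RefSeq (Release 6). Where several probe sets name a gene, the brightest stood for it in lists.

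The members, gene lists and tests were chosen with earlier results of these data known. Named genes are the 6 members, up to 2 called genes per list, direction and comparison (or the 2 with the smallest p), the 5 nearest patterns and the 10 neighbours; single genes beyond these were named after their values were seen. Alternatives were 8 settings and each array left out in turn. Tissue marker lists were flight muscle, other muscle, testis, neurons, ciliated sensory organs, tendon and epidermis, trachea, fat body and hemocytes. Beside those given with the results, other muscle, neurons, ciliated sensory organs, trachea, fat body and hemocytes had no gene called in any comparison. Some of these genes spread widely between arrays of a genotype, so the lack of a call says little for them. Fbp2 of the fat body list ran from 6.00 to 9.23 in Mhc7 and from 4.83 to 8.02 in Canton-S. Act79B of other muscle ran from 10.87 to 13.35 in Act88FKM88 and from 9.31 to 12.17 in Canton-S. Flight muscle had 1 higher and 1 lower in Act88FKM88 against Canton-S, none in Mhc7 against Canton-S and 1 lower in Act88FKM88 against Mhc7. Of all probe sets, 1.81%, 2.79% and 1.79% were called in these comparisons in that order.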

Additional observations from a re-analysis of the deposited data

How the results depend on the processing

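Over all probe sets, 524 were called in Mhc7 against Canton-S, and 266 with quantile normalization repeated or 291 with an intensity trend removed by loess. The share of calls that were higher was 86.1% there, and 54.1% and 62.9% under those alternatives; in Act88FKM88 against Canton-S it was 81.8%, and 51.0% and 56.5%. Leaving out 1 array at a time gave 218 to 390 calls in Act88FKM88 against Canton-S (340 with all arrays), 396 to 648 in Mhc7 against Canton-S and 192 to 400 in Act88FKM88 against Mhc7 (336 with all). Of the tubulin members, 0 were called in Mhc7 against Canton-S, and 1, betaTub56D, with a robust prior with intensity trend, loess, only the 6 arrays compared, quantile normalization or the replicate block. With dim probe sets left out before the adjustment it was 2, with betaTub60D, and it was 0 to 1 when an array was left out, both there and for the 5 members other than betaTub97EF in Act88FKM88 against Mhc7 (0 with all). The microtubule genes called in Act88FKM88 against Canton-S (2) were 0 with loess, 1 at an adjusted p under 0.05 and 1 to 2 without an array. Both were higher in the main fit. With quantile normalization or the replicate block 1 was higher and 1 lower, and without Act88FKM88 2 the 1 called was lower. In Mhc7 against Canton-S (8) they were 3 with loess, 3 with quantile normalization and 6 to 10 without an array, and in Act88FKM88 against Mhc7 (4) they were 0 to 5. The cause was not tested. Same-numbered arrays of Act88FKM88 and Mhc7 had correlations of deviations of 0.028 to 0.426, those of Act88FKM88 and Canton-S -0.013 to 0.156, and those of Mhc7 and Canton-S -0.316 to 0.074. Not every pair was positive, and not every array correlated best with its own number, so the numbers were not taken to pair the arrays. With the replicate block the betaTub56D difference in Mhc7 against Canton-S was -1.08 with an adjusted p of 0.0213 (limma), and 345, 532 and 340 probe sets were called in the 3 comparisons and 2, 8 and 4 microtubule genes. The descriptions of member values (median -0.20, and -0.26 to -0.18 without an array), of the neighbours (-0.03 to -0.01) and of the background level (3.25 to 3.27) moved little. Probe sets in the receptor range give no order, and 3 arrays a genotype limit what a test can call.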
